A study of Mus musculus with 6 samples.

Results

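The genes described here are 9 transcription factor genes of the enteroendocrine lineage: Neurog3, Neurod1, Insm1, Rfx6, Pax4, Pax6, Isl1, Nkx2-2 and Fev. They were chosen by symbol, as factors of endocrine commitment and of hormone subtype, and all 9 were found among the 55335 genes of the deposited count table. The choice was made with earlier results of these data known, so the shares of all genes given below are background and not a test. RNA-seq was done on intestinal tissue of mice given DSS (dextran sulfate sodium), an agent that damages the gut lining and causes colitis. The groups were 3 libraries labelled Trmt6-/- (KO72, KO73 and KO75) and 3 labelled wild type (WT185, WT186 and WT187), with DSS given in both groups. Trmt6 encodes a subunit of the tRNA 1-methyladenosine methyltransferase. The labels give no strain, age, intestinal segment, DSS dose, deleted exon or tissue restriction of the Trmt6 allele, and no mice without DSS were analysed here.

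Enteroendocrine cells are the scattered hormone-secreting cells of the gut epithelium. They arise from crypt progenitors that switch on Neurog3 briefly, after which Neurod1, Insm1, Rfx6, Pax4, Pax6, Isl1, Nkx2-2 and Fev take over and direct the choice between hormone types. Most of these factors also act in pancreatic islets and several in neurons, so markers of both are reported beside them.

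Total counts were 16479870, 15213972 and 15367262 in the libraries labelled Trmt6-/- and 16972758, 16127970 and 16024317 in WT. Levels are given as CPM, read counts scaled to the normalised size of the library. Trmt6 itself reached 39.8, 34.2 and 36.2 CPM in libraries labelled Trmt6-/-, against 30.9, 18.7 and 23.1 CPM in WT, so it was not lower where the label would have it lost (edgeR log2 fold change 0.60 ± 0.21, SE; adjusted p = 0.335). A count per gene does not show which exons were read, and every direction below rests on the labels. The tissue label was checked against markers. Broad epithelial genes such as Krt8 reached 4566, 3868 and 3051 CPM in libraries labelled Trmt6-/-, against 3685, 2739 and 3314 CPM in WT. Of the smooth muscle genes, Myh11 and Des did not exceed 0.142 CPM in any library, and Acta2 reached 0.226, 0.349 and 0.569 CPM in libraries labelled Trmt6-/-, against 0.104, 0 and 0.0599 CPM in WT, without overlap.

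All 9 factors had an estimate below 0, that is lower in libraries labelled Trmt6-/- than in WT, and 53.9% of the 14107 genes tested had one. All 9 had passed the filter on low counts. None passed at an adjusted p of 0.05 by edgeR, where 0.0425% of all genes passed in either direction and 0.00709% as lower. The median log2 fold change of the 9 was -1.14, beside -0.03 over all genes tested. At an unadjusted p below 0.05, 5 of 9 were lower (Insm1, Rfx6, Isl1, Nkx2-2 and Fev), where 5.94% of all genes tested were, and 0 of 9 were higher, where 6.15% of all genes were. In 7 of 9 every library labelled Trmt6-/- lay below every WT library, where 9.03% of all genes tested did, and 0 of 9 lay wholly above, where 9.7% did. Neurog3 and Pax4 overlapped. DESeq2 passed 2 of the 9, Insm1 and Rfx6, where it called 1.83% of the genes it tested as lower and 4.49% in either direction, and limma-voom passed 0 of the 9 and 0 genes in all, with 5 of the 9 at an unadjusted p below 0.05. The same count of 5 in edgeR was 3 without KO73 or without WT187, when Isl1 and Fev missed the threshold. In bulk RNA, fewer enteroendocrine cells and less of a transcript per cell cannot be told apart. Each library is a separate sample, and the labels do not say more of how the animals were drawn.

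**Figure D1:**
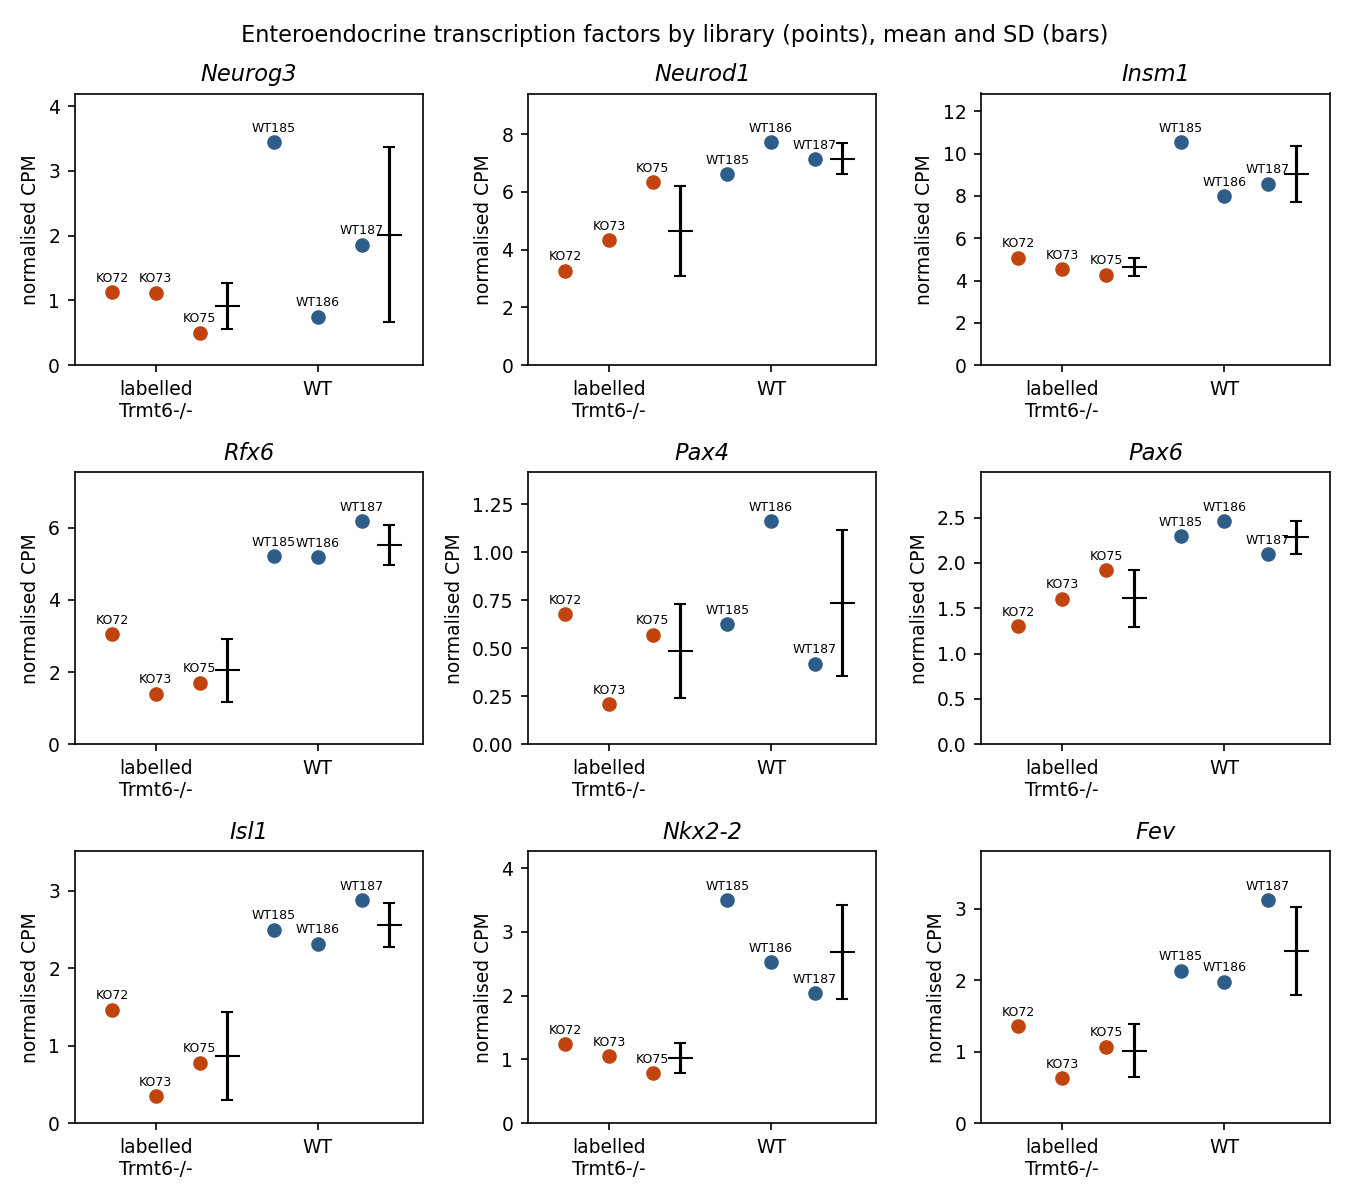
Normalised counts (CPM) of the 9 factors in each library (points), with group mean and SD (bars, n = 3 each), libraries labelled Trmt6-/- left of WT. The groups do not overlap in 7 panels, and they overlap in those of Neurog3 and Pax4.

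The promoters of 4 of these genes are shown: Neurog3 as the head of the cascade, and Isl1, Rfx6 and Nkx2-2, chosen after their values were seen because their estimates were the largest. Each is the 250 bases before the RefSeq start of the gene (GRCm38.p6, the assembly of the mm10 count table), read 5′ to 3′ on the gene's strand. Capitals mark E-boxes (CANNTG), the letters that Neurog3 and Neurod1 and other basic helix-loop-helix proteins bind. The windows are chr10:62132840-62133089 (plus strand) for Neurog3, chr13:116309689-116309938 (minus strand) for Isl1, chr10:51685268-51685517 (plus strand) for Rfx6 and chr2:147186403-147186652 (minus strand) for Nkx2-2. For Rfx6 and Nkx2-2 the RefSeq start lies inside the span that the count table gives the gene.
Neurog3: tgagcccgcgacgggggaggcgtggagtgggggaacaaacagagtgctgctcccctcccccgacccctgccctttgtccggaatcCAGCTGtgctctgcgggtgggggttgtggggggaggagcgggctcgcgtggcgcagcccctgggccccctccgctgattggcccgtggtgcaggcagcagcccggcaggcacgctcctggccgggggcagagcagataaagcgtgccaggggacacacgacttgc
Isl1: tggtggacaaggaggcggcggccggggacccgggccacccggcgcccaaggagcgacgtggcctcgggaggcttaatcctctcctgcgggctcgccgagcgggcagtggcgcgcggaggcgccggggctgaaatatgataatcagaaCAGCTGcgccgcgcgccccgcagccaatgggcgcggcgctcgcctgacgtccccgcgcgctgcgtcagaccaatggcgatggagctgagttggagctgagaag
Rfx6: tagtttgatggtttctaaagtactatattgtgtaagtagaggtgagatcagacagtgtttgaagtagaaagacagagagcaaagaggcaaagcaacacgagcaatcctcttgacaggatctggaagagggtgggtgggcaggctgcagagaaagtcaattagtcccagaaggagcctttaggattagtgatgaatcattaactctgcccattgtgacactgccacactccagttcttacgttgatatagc
Nkx2-2: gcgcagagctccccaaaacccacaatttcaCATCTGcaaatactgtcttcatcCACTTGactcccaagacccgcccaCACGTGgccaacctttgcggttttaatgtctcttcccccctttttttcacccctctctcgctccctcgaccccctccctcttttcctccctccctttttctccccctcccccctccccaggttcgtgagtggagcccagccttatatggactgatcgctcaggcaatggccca
RefSeq entries were matched by symbol for 7 of the 9 genes, with 8 start sites in all; Insm1 and Pax4 had none in the table. An E-box was present in 5 of the 8 windows, and 66.2% of all 32851 promoter windows of that length hold CANNTG on either strand. Neurog3 had CAGCTG at 165 bases and Isl1 CAGCTG at 103 bases before the start, while the Rfx6 and Fev windows held none. Nkx2-2 held 3, of which CATCTG is the reverse complement of CAGATG (present in 14.4% of all windows) and CACTTG is the reverse complement of CAAGTG, a core bound by NK2 proteins that is itself an E-box (11.6% of all windows). The homeodomain core TAAT or its reverse complement ATTA stood 3 times in the Rfx6 window, 2 times in that of Isl1 and 1 time in that of Nkx2-2, and 54.9% of all windows hold it. These matches describe letters and are no evidence of binding.

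Neurog3, the basic helix-loop-helix factor that commits progenitors to the endocrine fate (ENSMUSG00000044312.4; mm10 chromosome 10, 62133090 to 62134763), reached 1.13, 1.12 and 0.498 CPM in libraries labelled Trmt6-/-, against 3.44, 0.750 and 1.86 CPM in WT. WT186 lay below KO72 and KO73, so the groups overlapped. The log2 fold change was -1.14 ± 0.63 (adjusted p = 0.553), and it was -0.48 without WT185, the highest library. The gene had 43 counts in all in libraries labelled Trmt6-/- against 108 in WT, a ratio of 0.437 with an exact 95% counting interval of 0.299 to 0.627. Such ratios are scaled to library size, and their intervals cover counting error only, since reads are not independent molecules where none were tagged before amplification. Of its exon bases 16.3% are shared with Fam241b on the opposite strand, and with no strand option recorded reads there cannot be assigned.

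Across libraries Neurog3 had the same order as the proliferation genes Mki67 and Top2a: WT185 was highest, then WT187, KO72, KO73, WT186 and KO75. This pair was named after the values were seen, and the proliferation genes Pcna and Mcm2 had other orders, with WT185 highest in both. Neurog3 held 20 counts in KO72, 16 in KO73, 11 in WT186 and 7 in KO75, so those ranks are imprecise. Mki67 reached 287, 190.3 and 94.4 CPM in libraries labelled Trmt6-/-, against 387, 163 and 311 CPM in WT. The stem cell gene Lgr5 reached 12.2, 8.45 and 0.285 CPM in libraries labelled Trmt6-/-, against 37.6, 6.004 and 7.19 CPM in WT, with WT185 highest and KO75 lowest as well. With an index of 8 stem cell and cell cycle genes as a covariate, chosen after seeing the data, the Neurog3 estimate was -0.34 (adjusted p = 0.741), and with an index of ileal minus proximal genes it was -2.13 (adjusted p = 0.111). The other 8 factors did not follow this library order. The count of factors lower at an unadjusted p below 0.05 was 5 with either covariate, but with Neurod1 in place of Fev under the crypt index and Neurog3 in place of Fev under the regional one. The part of the crypt genes in the Neurog3 values was not tested beyond these fits.

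**Figure D2:**
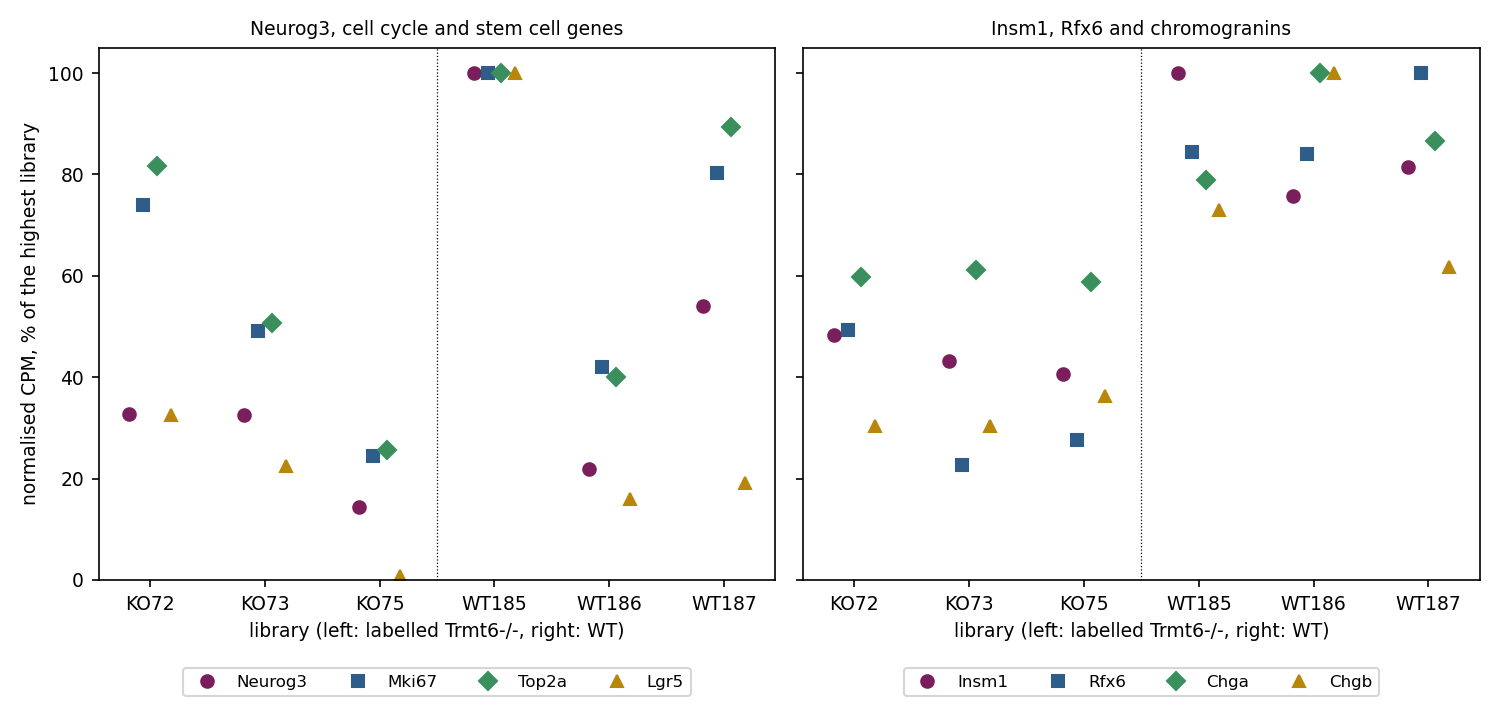
Normalised counts (CPM) in each library as a percentage of the highest library, for Neurog3 with Mki67, Top2a and Lgr5 (left panel) and for Insm1 and Rfx6 with the chromogranin genes Chga and Chgb (right panel). In the left panel WT186 is low with KO75, at 21.8% for Neurog3 and 42.1% for Mki67, while in the right panel all 3 WT libraries lie above all 3 libraries labelled Trmt6-/-.

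Insm1 and Neurod1 act just after commitment. Insm1, a zinc-finger repressor needed for endocrine differentiation (ENSMUSG00000068154.5; chromosome 2, 146221921 to 146225020), reached 5.08, 4.54 and 4.27 CPM in libraries labelled Trmt6-/-, against 10.5, 7.98 and 8.57 CPM in WT. The highest of the first group was below the lowest WT library, and the SD of the first group was 0.412 CPM. Its log2 fold change was -0.96 ± 0.25 (edgeR unadjusted p = 0.00644, adjusted p = 0.229; DESeq2 adjusted p = 0.00721). The 215 counts in libraries labelled Trmt6-/- against 462 in WT give a ratio of 0.510 (exact 95% counting interval 0.432 to 0.601).

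Neurod1, a basic helix-loop-helix factor switched on by Neurog3 and known in mice from secretin and cholecystokinin cells (ENSMUSG00000034701.9; chromosome 2, 79452521 to 79456751), reached 3.27, 4.33 and 6.33 CPM in libraries labelled Trmt6-/-, against 6.62, 7.71 and 7.13 CPM in WT. KO75 came close to WT185, and the groups did not overlap. The log2 fold change was -0.62 ± 0.32 (adjusted p = 0.519), and 7.37% of its exon bases are shared with Cerkl.

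Rfx6, a winged-helix factor that in mice and humans is needed for peptide hormone cells of gut and islet (ENSMUSG00000019900.19; chromosome 10, 51677756 to 51730432), reached 3.05, 1.40 and 1.71 CPM in libraries labelled Trmt6-/-, against 5.21, 5.19 and 6.17 CPM in WT. The groups were well apart, with KO72 the highest of the first. The log2 fold change was -1.42 ± 0.38 (edgeR unadjusted p = 0.00739, adjusted p = 0.237; DESeq2 adjusted p = 0.0113), and the scaled ratio of 98 counts in libraries labelled Trmt6-/- to 279 in WT was 0.385 (exact 95% counting interval 0.303 to 0.486).

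Nkx2-2, a homeodomain factor whose loss in mice removes most enteroendocrine types and raises ghrelin cells (ENSMUSG00000027434.11; chromosome 2, 147177546 to 147194243), reached 1.24, 1.05 and 0.783 CPM in libraries labelled Trmt6-/-, against 3.49, 2.52 and 2.04 CPM in WT. The groups did not overlap. The log2 fold change was -1.38 ± 0.39 (edgeR unadjusted p = 0.00939, adjusted p = 0.253; DESeq2 adjusted p = 0.0542). Of its exon bases 9.67% are shared with the antisense gene Nkx2-2os, and without strand the transcripts of the pair cannot be told apart there.

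Isl1, a LIM homeodomain factor of incretin and other hormone cells in the mouse gut (ENSMUSG00000042258.13; chromosome 13, 116298281 to 116309689), had the largest estimate of the 9. It reached 1.47, 0.349 and 0.783 CPM in libraries labelled Trmt6-/-, against 2.501, 2.32 and 2.88 CPM in WT, without overlap. The log2 fold change was -1.54 ± 0.53 (edgeR unadjusted p = 0.0226, adjusted p = 0.322), and it was -2.16 without KO72 and -1.18 without KO73. KO73 held 5 counts of the gene, so its value is imprecise.

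Fev, an ETS-domain factor best known in mice from serotonin neurons (ENSMUSG00000055197.4; chromosome 1, 74881509 to 74885419), reached 1.35, 0.629 and 1.07 CPM in libraries labelled Trmt6-/-, against 2.14, 1.98 and 3.12 CPM in WT. The groups did not overlap. The log2 fold change was -1.23 ± 0.42 (edgeR unadjusted p = 0.0232, adjusted p = 0.325). Rfx6, Isl1 and Fev shared the library order WT187, WT185, WT186, KO72, KO75 and KO73, a match picked after the values were seen. Some of these ranks were close: Rfx6 was at 5.21 CPM in WT185 and 5.19 CPM in WT186. Fev held 15 counts in KO75 and 9 in KO73. Neurod1 and Pax6 had another order among libraries labelled Trmt6-/-: KO75, KO73 and KO72.

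The paired-box genes had the smallest estimates. Pax6, which in mice drives the proglucagon and GIP genes (ENSMUSG00000027168.21; chromosome 2, 105668900 to 105697364), reached 1.30, 1.61 and 1.92 CPM in libraries labelled Trmt6-/-, against 2.29, 2.46 and 2.10 CPM in WT. The groups did not overlap, but the gap between KO75 and WT187 was small beside the range of the first group (log2 fold change -0.51 ± 0.33, adjusted p = 0.622). Pax4, which in mice favours serotonin and somatostatin cells (ENSMUSG00000029706.15; chromosome 6, 28442334 to 28449353), reached 0.677, 0.210 and 0.569 CPM in libraries labelled Trmt6-/-, against 0.625, 1.16 and 0.420 CPM in WT. Its groups overlapped, with 23 counts in libraries labelled Trmt6-/- against 36 in WT. The ratio of 0.701 had an exact 95% counting interval of 0.396 to 1.21, so its direction was not fixed even for counting error alone (log2 fold change -0.57 ± 0.61, adjusted p = 0.790; -0.09 without WT186).

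**Figure D3:**
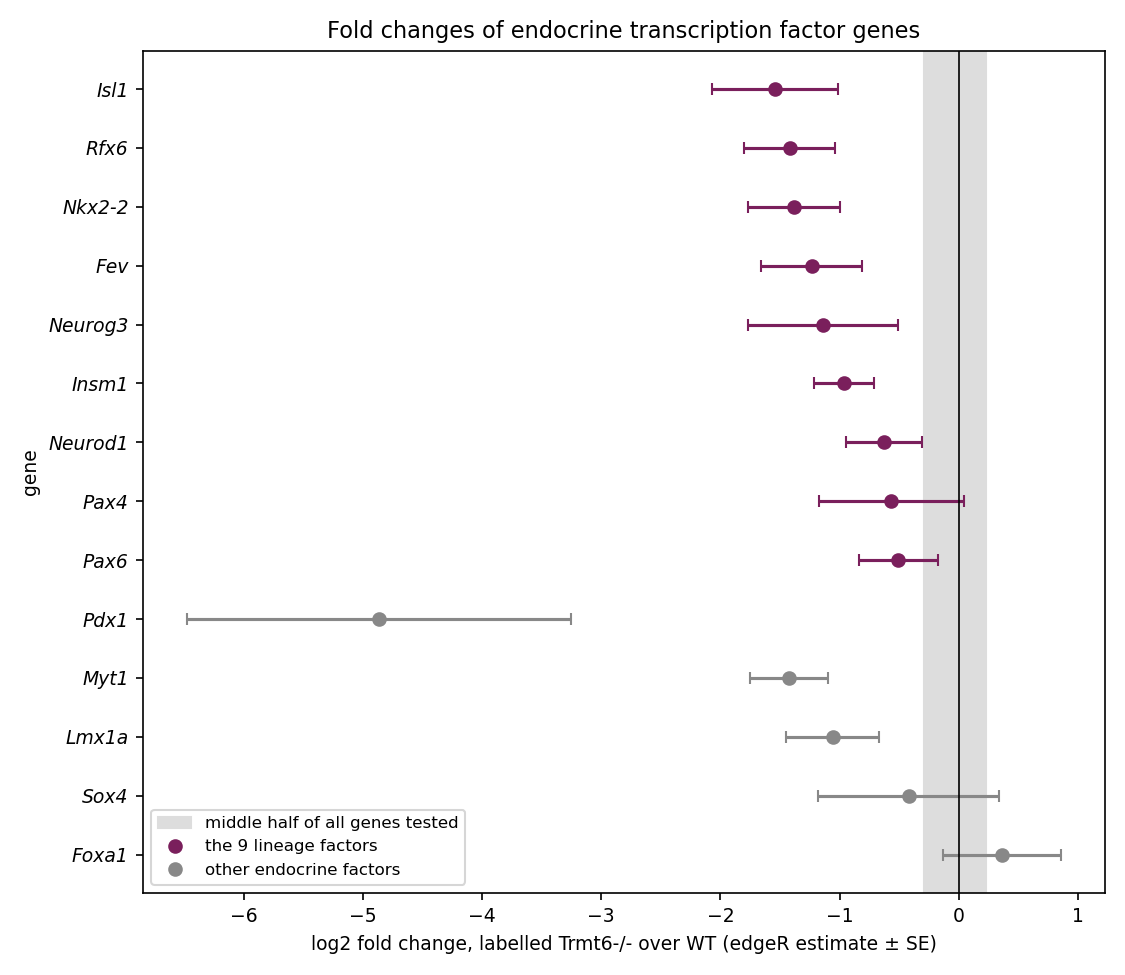
Log2 fold changes (edgeR estimate ± SE, 3 libraries a group) of the 9 lineage factors and of 5 other endocrine factor genes, those with the lowest p or the highest level per kilobase, libraries labelled Trmt6-/- over WT. The grey band spans the lower to the upper quartile of all 14107 genes (-0.29 to 0.23), and the 9 estimates run from -1.54 to -0.51.

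Levels between genes were compared as CPM per kilobase of exon. In libraries labelled Trmt6-/-, Neurod1 averaged 1.70 ± 0.570 and Insm1 1.49 ± 0.133 CPM per kilobase (SD, n = 3), whereas in WT Insm1 averaged 2.91 ± 0.429 and Neurod1 2.62 ± 0.200. The ranges of this pair overlapped in both groups, so their order is not fixed. Both lay above the remaining 7 in every library. Fev came next, at 0.629 ± 0.226 CPM per kilobase in libraries labelled Trmt6-/- against 1.49 ± 0.381 in WT. Neurog3 and Rfx6 followed, with Neurog3 at 0.546 ± 0.216 and Rfx6 at 0.511 ± 0.219 in libraries labelled Trmt6-/-, against 1.20 ± 0.807 for Neurog3 and 1.38 ± 0.140 for Rfx6 in WT. Nkx2-2, Isl1 and Pax4 were lower, and Pax6 was lowest at 0.138 ± 0.0267 CPM per kilobase in libraries labelled Trmt6-/- against 0.195 ± 0.0153 in WT. From Fev down to Isl1, each neighbour's range overlapped the next in both groups. The exon length of Pax6 in the count table is 11694 bases over all its annotated transcripts, which lowers its value on this scale.

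The 9 genes together held 329, 218 and 252 counts in libraries labelled Trmt6-/-, against 707, 470 and 572 counts in WT. Chga, which encodes the granule protein chromogranin A of most enteroendocrine cells, had a smaller estimate than most of them, at 56.7, 58.2 and 55.9 CPM in libraries labelled Trmt6-/- against 75.03, 95.04 and 82.2 CPM in WT (log2 fold change -0.56 ± 0.14, edgeR adjusted p = 0.210; DESeq2 adjusted p = 0.0232). The factors were also set against Chga. Rfx6 reached 5.37, 2.40 and 3.05 CPM per 100 CPM of Chga in libraries labelled Trmt6-/-, against 6.94, 5.46 and 7.51 in WT, without overlap. The gap was narrow, between KO72 with 54 counts of Rfx6 and WT186 with 76. Nkx2-2 reached 2.19, 1.80 and 1.40 per 100 CPM of Chga in libraries labelled Trmt6-/-, against 4.65, 2.66 and 2.48 in WT, again without overlap. On that scale Neurod1 averaged 8.18 in libraries labelled Trmt6-/- against 8.53 in WT, Pax6 2.83 against 2.73 in WT and Pax4 0.857 against 0.855 in WT, with overlapping groups. Insm1, Isl1, Fev and Neurog3 overlapped too. The choice of granule gene changed this. Per 100 CPM of Chgb, a denominator added after seeing the data, Rfx6 reached 4.86, 2.22 and 2.29 in libraries labelled Trmt6-/-, against 3.46, 2.51 and 4.85 in WT, and Nkx2-2 reached 1.98, 1.67 and 1.05 in libraries labelled Trmt6-/-, against 2.32, 1.223 and 1.60 in WT. Both overlapped, and Pax6 lay wholly higher at 2.07, 2.56 and 2.57 in libraries labelled Trmt6-/-, against 1.52, 1.19 and 1.647 in WT. The summed 9 factors per 100 CPM of Chga and Chgb together were 15.6, 12.6 and 13.7 in libraries labelled Trmt6-/-, against 16.3, 10.6 and 16.4 in WT, with overlap. These ratios were not tested, and the share of all genes without overlap was not computed on these scales.

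Other endocrine factors mostly had estimates below 0 as well. Of 14 on the list 12 were tested, 10 with an estimate below 0 (median -0.75), where 53.9% of all genes tested had one. By edgeR 0 passed, and 4 were lower at an unadjusted p below 0.05, where 5.94% of all genes tested were. Myt1, a zinc-finger factor of the same differentiation programme, reached 1.11 ± 0.165 CPM in libraries labelled Trmt6-/- against 3.01 ± 0.366 CPM in WT, SD, n = 3 each (log2 fold change -1.42 ± 0.33, SE; edgeR adjusted p = 0.198, DESeq2 adjusted p = 0.00985). Lmx1a, a LIM homeodomain factor of serotonin cells, reached 1.13 ± 0.0106 CPM in libraries labelled Trmt6-/- against 2.36 ± 0.796 CPM in WT (-1.06 ± 0.39, adjusted p = 0.351). Pdx1, which marks duodenum and pancreas, reached 0.282, 0.838 and 0.712 CPM in libraries labelled Trmt6-/-, against 13.6, 39.6 and 0.0599 CPM in WT, so its level followed single WT libraries.

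Upstream of Neurog3, Notch signals and Atoh1 set the secretory fate. All 11 genes of this list were tested, 6 with an estimate below 0 (median -0.20), where 53.9% of all genes tested had one, and 0 passed by edgeR. Atoh1, the factor shared by all secretory lineages, reached 28.4, 19.4 and 15.4 CPM in libraries labelled Trmt6-/-, against 24.5, 10.4 and 17.1 CPM in WT, with overlap. The Notch ligand genes Jag1 and Dll1 were lower at an unadjusted p below 0.05: Jag1 reached 12.7 ± 1.71 CPM in libraries labelled Trmt6-/- against 22.5 ± 0.792 CPM in WT (-0.82 ± 0.18; edgeR adjusted p = 0.184, DESeq2 adjusted p = 0.00123) and Dll1 reached 32.1 ± 4.72 CPM in libraries labelled Trmt6-/- against 58.0 ± 15.4 CPM in WT (-0.85 ± 0.23, adjusted p = 0.245). The ligand gene Dll4 had a positive estimate at an unadjusted p below 0.05, at 21.3 ± 0.533 CPM in libraries labelled Trmt6-/- against 15.9 ± 2.12 CPM in WT (0.42 ± 0.17, adjusted p = 0.402).

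Products of mature endocrine cells had estimates below 0 in most cases. Of 14 hormone and transmitter genes 11 were tested, 9 with an estimate below 0 (median -0.79), where 53.9% of all genes tested had one. By edgeR 0 passed, and 6 were lower at an unadjusted p below 0.05, where 5.94% of all genes tested were. Cck, the cholecystokinin gene, reached 5.70, 6.36 and 8.75 CPM in libraries labelled Trmt6-/-, against 28.0, 76.3 and 20.8 CPM in WT (-2.59 ± 0.52; edgeR adjusted p = 0.173, DESeq2 adjusted p = 1.5e-04). Tph1, the enzyme of serotonin synthesis, reached 9.37 ± 1.01 CPM in libraries labelled Trmt6-/- against 23.7 ± 13.1 CPM in WT (-1.33 ± 0.38; edgeR adjusted p = 0.264, DESeq2 adjusted p = 0.0406). Sct, the secretin gene, reached 12.7 ± 2.94 CPM in libraries labelled Trmt6-/- against 21.9 ± 6.27 CPM in WT (-0.79 ± 0.28, edgeR adjusted p = 0.342). WT186 was the highest library for Cck, Tph1 and Sct. Without it the estimates were -1.81 for Cck, -0.77 for Tph1 and -0.52 for Sct. The 2 tested genes with an estimate above 0 were Pyy (0.97 ± 0.81) and Nts (0.40 ± 0.49), both with overlapping groups. Insl5, a hormone of colonic cells, had 0 counts in every library, which allows up to 0.214 CPM in any of them.

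Of 17 granule and prohormone processing genes 16 were tested, 14 with an estimate below 0 (median -0.89), where 53.9% of all genes tested had one. By edgeR 0 passed, and 10 were lower at an unadjusted p below 0.05, where 5.94% of all genes tested were. Chgb, the chromogranin B gene, reached 62.6, 62.9 and 74.7 CPM in libraries labelled Trmt6-/-, against 150.5, 206 and 127 CPM in WT (-1.27 ± 0.21; edgeR adjusted p = 0.128, DESeq2 adjusted p = 9.2e-05). Scg2, the secretogranin II gene, reached 3.06 ± 0.789 CPM in libraries labelled Trmt6-/- against 8.96 ± 3.61 CPM in WT (-1.54 ± 0.39; edgeR adjusted p = 0.226, DESeq2 adjusted p = 0.0128). The 2 tested genes with an estimate above 0 were Slc18a1 and Cpe. Slc18a1 reached 17.6, 16.6 and 17.4 CPM in libraries labelled Trmt6-/-, against 13.1, 13.6 and 13.3 CPM in WT, without overlap (0.36 ± 0.16, edgeR adjusted p = 0.454). The groups of Cpe overlapped (0.13 ± 0.20).

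**Figure D4:**
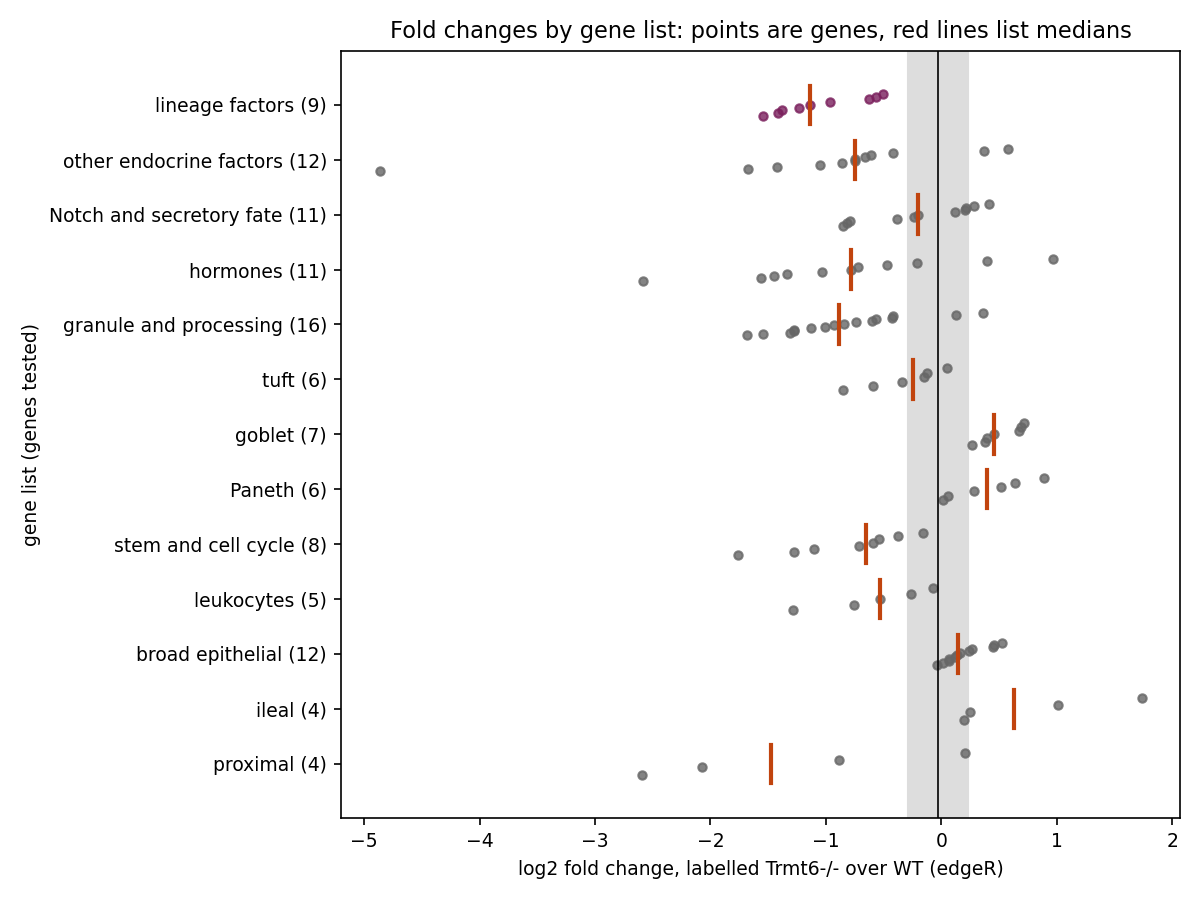
Log2 fold changes (edgeR) of each tested gene by list, libraries labelled Trmt6-/- over WT, with list medians in red and the lower to upper quartile of all genes in grey. The lineage factors (median -1.14), other endocrine factors (-0.75), hormones (-0.79) and granule genes (-0.89) lie left of the goblet (0.45) and Paneth (0.40) lists. Medians were also below 0 for the proximal (-1.48), stem and cell cycle (-0.65), leukocyte (-0.53), tuft (-0.25) and Notch and secretory fate (-0.20) lists. Lists with under 4 tested genes are not drawn.

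Among other epithelial lineages, all 7 goblet cell genes had estimates above 0 (median 0.45), where 53.9% of all genes tested had one below 0. The 6 Paneth cell genes had a median of 0.40 and the 6 tested tuft cell genes one of -0.25. The Paneth list summed to 3746 to 7447 CPM in libraries labelled Trmt6-/-, against 986 to 8410 CPM in WT, with overlap. None of the goblet, Paneth and tuft cell genes passed by edgeR, and the difference from the 9 factors was not tested. DESeq2 passed 1 of them, the goblet mucin gene Muc2, as higher, at 1619 ± 143 CPM in libraries labelled Trmt6-/- against 986 ± 172 CPM in WT (adjusted p = 0.00736). Of all the genes it tested, DESeq2 passed 4.49% in either direction and 1.83% as lower. The 12 broad epithelial genes had a median of 0.14. Scaled to the sum of these 12 genes, the median of the 9 factors was -1.36 and that of all genes -0.21.

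Markers of other sources of these factors were examined. Of 14 enteric neuron genes 3 were tested, and Nos1 and Vip were at 0 in every library. Elavl4 did not exceed 0.156 CPM in any library. The neuron list summed to 17.5 to 43.8 CPM in libraries labelled Trmt6-/-, against 7.85 to 8.87 CPM in WT. Most of the sum in libraries labelled Trmt6-/- was Ret alone, so it does not describe the list as a whole. Ret reached 14.5, 40.9 and 27.7 CPM in libraries labelled Trmt6-/-, against 6.20, 4.37 and 4.73 CPM in WT (2.44 ± 0.40; edgeR adjusted p = 0.128, DESeq2 adjusted p = 5.1e-06). Chat reached 1.58, 1.19 and 0.427 CPM in libraries labelled Trmt6-/-, against 0.782, 0.819 and 0.659 CPM in WT, with overlap. Snap25, an exocytosis gene that endocrine cells share with neurons, reached 0.451 ± 0.0492 CPM in libraries labelled Trmt6-/- against 1.97 ± 1.03 CPM in WT (-2.10 ± 0.53, edgeR adjusted p = 0.225). In WT186 Snap25 was the next highest of the list after Ret, at 3.00 CPM. The glial gene Sox10 was at 0 in every library. The part of these genes in the factor values was not tested.

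The 10 pancreatic genes summed to 0.169 to 0.349 CPM in the libraries labelled Trmt6-/-, and to 0.521, 57.3 and 0.180 CPM in WT185, WT186 and WT187, led by Ctrb1 at 14.8 CPM and Cela2a at 9.82 CPM in WT186. The islet gene Ins1 had 0 counts in every library and Ins2 had 1 count, in WT186. Without WT186 the estimates were -1.03 for Insm1, -1.46 for Rfx6, -1.60 for Isl1, -1.42 for Nkx2-2 and -1.35 for Fev, and they were -1.52 for Neurog3, -0.55 for Neurod1, -0.44 for Pax6 and -0.09 for Pax4. The estimates of Neurod1, Pax6 and Pax4 were thus nearer to 0 without that library, and those of the other 6 farther from it.

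An index of ileal minus proximal genes, which follows position along the gut, was 0.59, -1.02 and -3.25 in libraries labelled Trmt6-/-, against -1.47, -6.82 and -5.64 in WT. With it as a covariate the 9 estimates stayed below 0 (median -1.25) and none passed. Of the hormone and transmitter genes named as lower, the estimates with it were -1.86 for Cck, -0.80 for Tph1 and -0.32 for Sct. The 8 stem cell and cell cycle genes all had estimates below 0 (median -0.65), where 53.9% of all genes tested had one. With the index of these 8 genes as a covariate the median of the 9 factors was -0.95. The 5 tested leukocyte genes had a median of -0.53, and the 4 proximal genes one of -1.48. The part of tissue position in the factor values was not tested beyond these fits, and that of leukocytes was not tested.

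Among the genes whose levels over the 6 libraries were most like the mean standardised log2 CPM of the 9 factors were Ppp5c, Traf2, Aldh6a1 and Mrpl34, with Pearson correlations of 0.995 to 0.988 among 10353 genes at 5 CPM or more. These describe the highest of many values over 6 libraries in 2 groups, so no p is given. Ppp5c, a protein phosphatase gene, reached 99.4, 86.3 and 92.1 CPM in libraries labelled Trmt6-/-, against 136, 131 and 133 CPM in WT (-0.52 ± 0.13, edgeR adjusted p = 0.211), and Traf2, Aldh6a1 and Mrpl34 did not pass either.

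**Figure D5:**
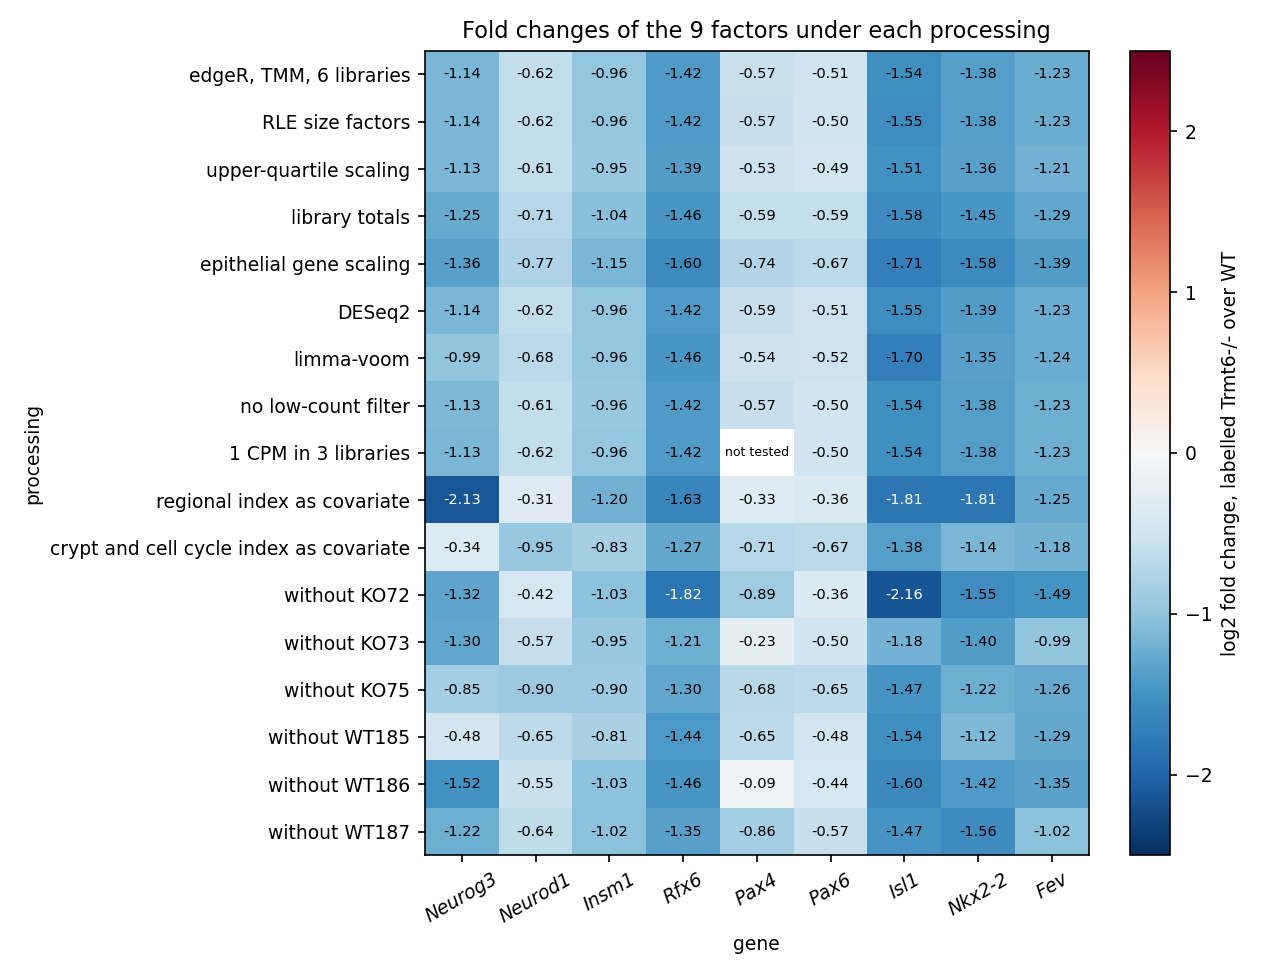
Log2 fold change of each of the 9 factors (columns), libraries labelled Trmt6-/- over WT, under each processing (rows), from blue for lower to red for higher. All estimates are below 0, Pax4 comes nearest to 0 at -0.09 without WT186, and Neurog3 ranges from -2.13 to -0.34.

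Every estimate of the 9 factors was below 0 under each of the 16 alternatives run; Pax4 was tested in 15 of them. Insm1, Rfx6 and Nkx2-2 had an unadjusted p below 0.05 in all 16, Isl1 in 13, Fev in 12, Neurog3 and Neurod1 in 2 each and Pax4 and Pax6 in 0.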

How the data were processed

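The authors deposited 1 table of raw counts per gene for 6 libraries, made with featureCounts 2.0.1 on GENCODE M23 exons, per the file headers, which record no strand option. The submitters' processing notes name fastp, HISAT2 and mm10. Symbols came from GENCODE M21 by stable identifier (55154 of 55335 matched). Column names carry numbers that no label gives, so each was assigned to a group by its prefix and to no replicate. Total counts are given with the results.

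After filterByExpr and TMM scaling, the two-sided quasi-likelihood test of edgeR 4.0.16 (R 4.3.3) was run with genotype as the only term and Benjamini-Hochberg adjustment over 14107 genes; the SE is the absolute log2 fold change over the square root of F. DESeq2 1.42.0, limma-voom (limma 3.58.1), other scalings and filters, 2 covariates and each library left out were alternatives. On simulated data the share of false calls was above the nominal rate for DESeq2 and slightly above it for edgeR. Indices and likeness use log2(CPM + 0.5).

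Members and lists were chosen with earlier results of these data known. The rule names all members and, in the endocrine and fate lists, the 3 genes with the lowest p; of the rule's genes in the marker lists and of the most abundant ones, only those beside a result are given. Atoh1, Mki67, Top2a, Mcm2, Lgr5, Snap25, Elavl4, Nos1, Vip, Sox10, Myh11, Des, Insl5, Ins1, Ins2, Pyy, Nts, Slc18a1 and Cpe were named after their values were seen. A count of 0 allows up to 3 counts. Some genes that the rules pick are not reported here.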

Additional observations from a re-analysis of the deposited data

How the results depend on the processing

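The 9 factors kept their direction under all alternatives. The number passing by adjusted p was 0 in edgeR and in every alternative but DESeq2, where it was 2. The number of all genes passing, 6 in edgeR with TMM, was 0 with library totals, limma-voom or the regional covariate, 3 with epithelial gene scaling, 13 with the crypt and cell cycle covariate, 159 with no low-count filter and 633 with DESeq2; it was 0 to 6 with a library left out. The count of factors lower at an unadjusted p below 0.05 was 3 to 6 with a library left out and 5 otherwise, and that of factors without overlap 7 to 8, where fewer libraries make overlap less likely. The causes were not tested. Trmt6 was higher in the libraries labelled Trmt6-/- under all alternatives, without passing (0.30 to 0.84).

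Counts were low for several factors: Pax4 had 3 to 17 counts a library, Isl1 5 to 48, Fev 9 to 52, Neurog3 7 to 66 and Nkx2-2 11 to 67. Neurog3 also varied between WT libraries, with 66, 11 and 31 counts. The part of depth in which factors passed was not tested. Of the tests run, DESeq2 alone passed Insm1 and Rfx6. No paired analysis was possible because the library columns carry numbers that no label gives and not the replicate numbers of the labels.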
